A study of Homo sapiens with 6 samples.

Results

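The BTG/TOB and ZFP36 proteins are adapters that bring the CCR4-NOT deadenylase to mRNAs. Their 8 genes BTG1, BTG2, BTG3, TOB1, TOB2, ZFP36, ZFP36L1 and ZFP36L2 were taken by exact symbol from the 31628 genes of an RNA-seq table of HCT116 cells. HCT116 is a human colon cancer line, and in every library used here it carried an auxin-inducible degron on ENL, a reader of acetylated histones, plus AtAFB2, the plant F-box protein that degrades the tagged protein when auxin is present. There were 3 groups of 2 libraries. Washout cells were given IAA (an auxin, 500 um as labelled) for 3 h, washed with PBS and grown without it for 48 h. IAA cells were harvested after the 3 h of treatment. Control cells had the degron but received no IAA. The labels mention puromycin and blasticidin selection of clones but not how many clones were used, and they do not say whether replicates came from separate cultures, so p-values measure only the spread between these libraries. No cells without the degron were treated in these libraries, so loss of ENL and other effects of IAA cannot be told apart.

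The poly(A) tail of a cytoplasmic mRNA is shortened mainly by CCR4-NOT, and decapping and degradation from the 5′ end follow. BTG and TOB proteins bind the deadenylase subunits of CCR4-NOT through a shared BTG domain, were described as antiproliferative genes, and in the case of TOB also contact the poly(A) binding protein. ZFP36 (tristetraprolin), ZFP36L1 and ZFP36L2 bind AU-rich elements in 3′ untranslated regions through paired CCCH zinc fingers and recruit CCR4-NOT to transcripts such as those of cytokines and early response genes. BTG2 is a target of p53, and ZFP36 is itself an early response gene.

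Library totals recovered from the FPKM values lay between 16442840 and 16770850 reads. MLLT1, which encodes ENL, had 0.413 and 0.384 FPKM in washout, 0.404 and 0.358 FPKM in IAA and 0.412 and 0.427 FPKM in control. The degron acts on the protein, so these levels do not check it. All 8 epithelial markers had a mean of at least 1 FPKM, and their summed level was 330 and 345 FPKM in washout, 278 and 274 FPKM in IAA and 342 and 352 FPKM in control. Keratins KRT8, KRT18 and KRT19 were lower in IAA than in control (limma adjusted p = 0.0228, 0.0221 and 0.0137). EPCAM, CDH1, CDX2, VIL1 and CLDN4 did not pass, at 0.913, 1.01, 1.34, 1.24 and 1.04 times the control mean. The summed level was mostly KRT18 and KRT19, with means of 171 and 132 FPKM in control. The part of these markers in the results below was not tested. Of 13 markers of fibroblasts, endothelium and blood, 12 were matched and 0 reached a mean of 1 FPKM. The summed level of the 12 ran from 0.639 to 0.818 FPKM in washout and IAA and from 0.569 to 0.591 FPKM in control. It was mostly COL1A1, with means of 0.725 FPKM in washout, 0.682 in IAA and 0.519 in control.

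All 8 adapters were among the 8317 genes with a mean of at least 1 FPKM that were tested with limma on log2(FPKM + 1). Changed means a Benjamini-Hochberg adjusted p under 0.05 over those genes, with no limit on fold. After 3 h of IAA, BTG1, BTG2, TOB1, TOB2 and ZFP36 were higher than in control, ZFP36L1 and ZFP36L2 were lower, and BTG3 did not pass. These 7 of 8 compare with 13.1% of all tested genes called in that comparison, 6.64% higher and 6.49% lower. The adapters were chosen with earlier results of these data known, so this share is not independent evidence about them. The absolute log2 change had a median of 0.47 over the 8 adapters and of 0.1 over all tested genes. The log2(FPKM + 1) scale understates changes of low genes, and these medians were not matched for level. The IAA and control libraries did not overlap for any of the 8 adapters, nor for 61.9% of all tested genes. The plot of FPKM by library shows every adapter.

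**Figure D1:**
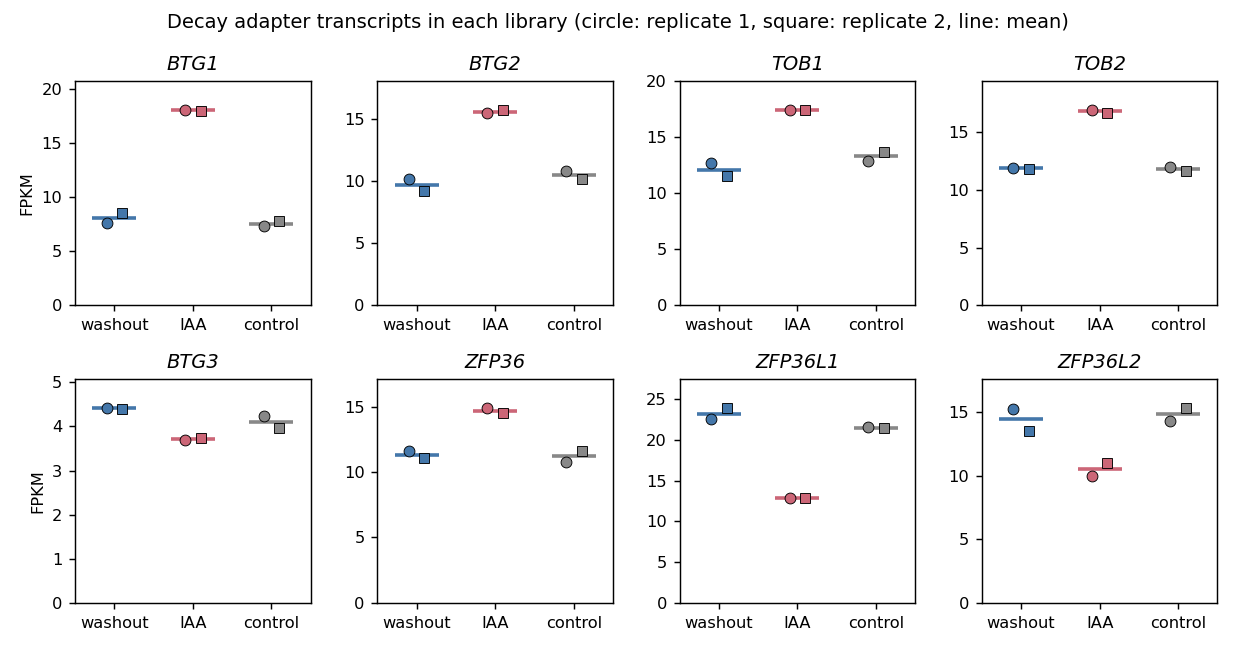
FPKM (vertical axes, from 0) of the 8 adapters in the washout, IAA and control libraries. Circles are replicate 1, squares replicate 2 and lines the group means. In each panel both IAA libraries lie outside the range of the control libraries, above it for BTG1, BTG2, TOB1, TOB2 and ZFP36 and below it for BTG3, ZFP36L1 and ZFP36L2.

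Among the BTG and TOB genes the largest change was that of BTG1 (ENSG00000133639.3, chromosome 12), an antiproliferative gene. It had 7.61 and 8.53 FPKM in washout, 18.0 and 17.9 FPKM in IAA and 7.27 and 7.76 FPKM in control. Both IAA libraries stood far above the other 4, which lay close together. The IAA mean was 2.39 times that of control (log2 change 1.16, SE 0.0637, limma adjusted p = 0.00351), the 17th largest rise of the tested genes on this scale. The reads behind BTG1 are fixed only up to a common factor and are whole multiples of 431 and 481 in washout, 1002 and 1019 in IAA and 409 and 441 in control. In GENCODE 29 the exons of BTG1 share 128 bases with LINC01619 on the same strand and 325 bases with AC025164.1 on the other. LINC01619 reached at most 0.000762 FPKM in any library, and AC025164.1 was not analysed here.

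BTG2 (ENSG00000159388.5, chromosome 1), the p53-responsive member, had 10.2 and 9.23 FPKM in washout, 15.5 and 15.7 FPKM in IAA and 10.8 and 10.2 FPKM in control. These stand for 702 and 632 reads in washout, 1045 and 1080 in IAA and 738 and 706 in control. The IAA libraries were again apart from the other 4, at 1.48 times the control mean (log2 change 0.52, SE 0.0591, limma adjusted p = 0.0137).

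TOB1 and TOB2 are the larger members of the family, with an extended C-terminal part that BTG1 and BTG2 lack. TOB1 (ENSG00000141232.4, chromosome 17) had 12.7 and 11.5 FPKM in washout, 17.4 and 17.4 FPKM in IAA and 12.9 and 13.7 FPKM in control. It was 1.31-fold higher in IAA than in control (log2 change 0.37, SE 0.0603, limma adjusted p = 0.0279). TOB1 exons share 281 bases with the antisense gene TOB1-AS1, which was not analysed here, and no source used here says whether counting used strand. TOB2 (ENSG00000183864.4, chromosome 22) had 11.9 and 11.8 FPKM in washout, 16.9 and 16.7 FPKM in IAA and 12 and 11.6 FPKM in control. Its rise in IAA was 1.43-fold (log2 change 0.48, SE 0.0377, limma adjusted p = 0.00768). It rested on the most reads among the adapters that rose, 3762 and 3789 in IAA against 2695 and 2624 in control.

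BTG3 (ENSG00000154640.10, chromosome 21) was the member of its family that did not rise. It had 4.42 and 4.4 FPKM in washout, 3.69 and 3.73 FPKM in IAA and 4.24 and 3.97 FPKM in control. The IAA libraries were the lowest of the 6, but the difference from control did not pass (log2 change -0.12, unadjusted 95% interval -0.22 to -0.01, limma adjusted p = 0.128).

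In the ZFP36 family the direction differed between members. ZFP36 (ENSG00000128016.4, chromosome 19) had 11.6 and 11.1 FPKM in washout, 14.9 and 14.5 FPKM in IAA and 10.8 and 11.6 FPKM in control. It was 1.31-fold higher in IAA than in control (log2 change 0.37, SE 0.0486, limma adjusted p = 0.0177), on 638 and 632 reads in IAA against 467 and 504 in control. ZFP36L1 (ENSG00000185650.8, chromosome 14) had 22.6 and 23.9 FPKM in washout, 12.9 and 12.9 FPKM in IAA and 21.6 and 21.4 FPKM in control. The IAA libraries were the lowest by a wide margin, at 0.599 of control (log2 change -0.70, SE 0.0423, limma adjusted p = 0.00404). ZFP36L2 (ENSG00000152518.5, chromosome 2) had 15.2 and 13.5 FPKM in washout, 9.94 and 11.0 FPKM in IAA and 14.3 and 15.3 FPKM in control. It stood at 0.706 of control in IAA (log2 change -0.47, SE 0.0792, limma adjusted p = 0.0291), and its replicates differed more than those of ZFP36L1.

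The transcripts of the ZFP36 family themselves carry the AU-rich nonamer that the family binds. In GENCODE 29, with 1 principal transcript per gene, TTATTTATT, searched on the transcript strand, occurred once in the 3′ untranslated region of each of the 3 ZFP36 genes and in 0 of the 5 BTG and TOB genes, against 7.27% of 19581 protein-coding transcripts. The sites are shown because they are the sequence that the 3 genes share although 1 of them rose and 2 fell. Capitals mark the nonamer, and T stands for U of the RNA.
ZFP36, GRCh38 chr19:39409196-39409224, plus strand: tatgacgactTTATTTATTctaatatgat
ZFP36L1, GRCh38 chr14:68788077-68788105, minus strand: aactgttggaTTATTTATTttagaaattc
ZFP36L2, GRCh38 chr2:43223448-43223476, minus strand: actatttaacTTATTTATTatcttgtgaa
The 3 sites start 507, 1438 and 853 bases after the stop codon, in 3′ untranslated regions of 713, 1871 and 1917 bases. The shorter letters TATTTAT, which lie within the nonamer, occurred in 7 of the 8 adapters (not in TOB1), against 27.9% of all these transcripts. The Pumilio site letters TGTANATA occurred in BTG1 only among the adapters, 4 times, in a 3′ untranslated region of 3802 bases, against 22.6% of all transcripts. The 3′ untranslated regions of the adapters ran from 440 bases in BTG3 to 3802 in BTG1, against a median of 826 over all transcripts, and the shares were not matched for length.

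Promoters were compared in RefSeq's GRCh38.p14 table, which lists 9 transcription starts for 7 of the adapters. ZFP36L2 had no start there and was not searched. The 250 bases before each start were searched on both strands. The cyclic AMP response element TGACGTCA occurred in 1 of the 9 windows, at a ZFP36L1 start, against 1.65% of 35116 promoters. Its shorter form ACGTCA occurred in 2 of the 9 windows, that of BTG1 and, within the full element, the same ZFP36L1 start, against 7.1%. These windows are shown because they belong to the adapters with the largest rise and the largest fall. Capitals mark the element.
BTG1, GRCh38.p14 chr12:92145847-92146096, minus strand: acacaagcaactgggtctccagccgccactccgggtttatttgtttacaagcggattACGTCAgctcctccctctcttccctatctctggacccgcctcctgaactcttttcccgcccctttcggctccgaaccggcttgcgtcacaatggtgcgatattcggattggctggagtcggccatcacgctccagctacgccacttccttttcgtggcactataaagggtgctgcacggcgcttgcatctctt
ZFP36L1, GRCh38.p14 chr14:68793417-68793666, minus strand: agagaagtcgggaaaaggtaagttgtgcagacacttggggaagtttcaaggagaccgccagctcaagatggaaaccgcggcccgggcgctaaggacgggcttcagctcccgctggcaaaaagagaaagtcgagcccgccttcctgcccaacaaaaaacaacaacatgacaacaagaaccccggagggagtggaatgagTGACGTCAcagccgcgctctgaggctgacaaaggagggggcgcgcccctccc
The GC box GGGCGG occurred in 6 of the 9 windows, 1 for each of the 7 searched genes but ZFP36L1, against 42.6% of promoters. GCGTG, the core bound by the aryl hydrocarbon receptor, occurred in 3 of the 9 windows (BTG1, TOB2 and ZFP36), against 32.2%. The AP-1 letters TGANTCA (6.57% of promoters), the E-box CACGTG (6.34%) and the CArG box (1.16%) occurred in 0 of the 9 windows. A match describes the letters only.

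Levels were also compared between genes, as exon RPKM, the recovered reads divided by exon length and library total. The deposited FPKM were divided by the whole gene span, introns included, which makes genes with long introns look low. No source used here says whether intronic reads were counted. On this scale BTG3 was at 53.6 ± 0.144 in washout, 45.1 ± 0.389 in IAA and 49.9 ± 2.38 in control (SD, n = 2 per group). TOB2 was at 35.2 ± 0.171 in washout, 49.8 ± 0.444 in IAA and 34.9 ± 0.885 in control. In control the order of the mean levels was BTG3, ZFP36L1 (38.3 ± 0.333), TOB2, TOB1 (30.5 ± 1.37), ZFP36L2 (16.9 ± 0.797), BTG2 (16.0 ± 0.603), ZFP36 (14.8 ± 0.701) and BTG1. The values of ZFP36L2 and BTG2 overlapped there, those of BTG2 and ZFP36 nearly touched (15.5 and 15.3 at their closest), and the other neighbours were apart. In IAA the order was TOB2, BTG3, TOB1 (40 ± 0.00109), BTG2 (23.6 ± 0.22), ZFP36L1 (22.9 ± 0.0325), ZFP36 (19.4 ± 0.401) and ZFP36L2 (11.9 ± 0.847), leaving BTG1 aside. BTG1 was at 26.0 and 26.0 in IAA and 10.5 and 11.2 in control, or at 13.0 and 13.0 in IAA and 5.26 and 5.62 in control if its reads are the smallest whole solution, and was the lowest adapter in control either way.

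The other 4 BTG and TOB genes together summed to 134 and 129 exon RPKM in washout, 158 and 159 in IAA and 133 and 130 in control. BTG3 made up 40.2% and 41.5% of this sum in washout, 28.3% and 28.6% in IAA and 38.8% and 37.2% in control. TOB2 made up 26.5% and 27.2% in washout, 31.7% and 31.2% in IAA and 26.7% and 26.5% in control. The sum was highest in the IAA libraries, where TOB2 in place of BTG3 was the largest contributor.

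The 3 ZFP36 genes together summed to 72.8 and 72.6 exon RPKM in washout, 54.0 and 54.6 in IAA and 69.1 and 70.8 in control. ZFP36L1 made up 55.3% and 58.5% of this sum in washout, 42.5% and 42.0% in IAA and 55.7% and 53.7% in control. ZFP36 made up 21.0% and 20.3% in washout, 36.6% and 35.1% in IAA and 20.7% and 21.6% in control. The share of ZFP36L2 ran from 21.2% to 23.7% in washout, 21.0% to 22.9% in IAA and 23.6% to 24.7% in control. In IAA the sum was thus lower than in all other libraries and more of it was ZFP36. Less RNA per cell and fewer cells with the transcript cannot be told apart in these bulk libraries. These sums and shares were not tested.

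**Figure D2:**
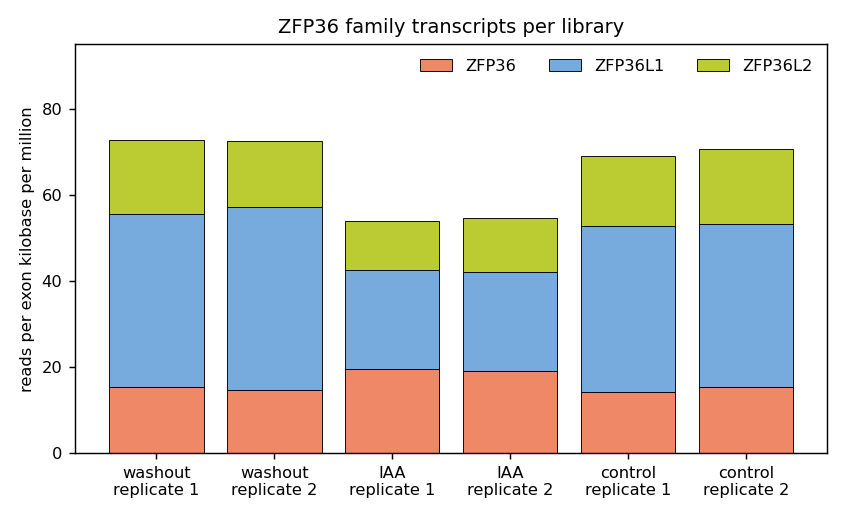
Stacked bars of exon RPKM (recovered reads per exon length and library total, vertical axis, from 0) of ZFP36, ZFP36L1 and ZFP36L2 in each washout, IAA and control library. The IAA bars reach 54.0 and 54.6, below the washout bars at 72.8 and 72.6 and the control bars at 69.1 and 70.8, and their ZFP36L1 segment is the one that is shortest relative to the other bars.

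The calls of IAA against control depended on having both replicates. Without control replicate 1 the adapters called were BTG1 and ZFP36L1, without control replicate 2 BTG1, without IAA replicate 1 BTG1, and without IAA replicate 2 BTG1 and ZFP36L1. In these fits a group has a lone library that is assumed to vary like the other groups. Calls over all tested genes dropped in them as well, so the loss of calls was not particular to the adapters. Over all fits that left out a library, the adjusted p of limma reached 0.0458 for BTG1, 0.0863 for BTG2, 0.121 for TOB1, 0.067 for TOB2, 0.095 for ZFP36, 0.0519 for ZFP36L1 and 0.134 for ZFP36L2. Log2 changes moved little in them, from 1.11 to 1.2 for BTG1, 0.49 to 0.56 for BTG2, 0.32 to 0.41 for TOB1, 0.45 to 0.50 for TOB2, 0.32 to 0.41 for ZFP36, -0.70 to -0.69 for ZFP36L1 and -0.53 to -0.40 for ZFP36L2. With all 8317 genes, 552 were higher and 540 lower in IAA, and with FPKM rescaled to TPM 397 were higher and 647 lower (50.5% and 38.0% higher). The 7 adapters were called under both scalings.

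Washout against IAA asked how the adapters stood once IAA had been removed. All 8 changed, BTG1, BTG2, TOB1, TOB2 and ZFP36 lower and BTG3, ZFP36L1 and ZFP36L2 higher, against 14.4% of all tested genes called (7.73% higher and 6.65% lower). The libraries of the groups did not overlap for any of the 8, nor for 62.1% of all tested genes. This comparison shares the IAA libraries with that of IAA against control, so its directions are not independent of those above. BTG1 fell to 0.449 of its level in IAA (log2 change -1.07, SE 0.0637, limma adjusted p = 0.00433). BTG2 fell to 0.625 (limma adjusted p = 0.00996), TOB1 to 0.693 (0.0152), TOB2 to 0.706 (0.00808) and ZFP36 to 0.771 (0.02). ZFP36L1 rose 1.80-fold (log2 change 0.80, SE 0.0423, limma adjusted p = 0.00342) and ZFP36L2 rose 1.37-fold (limma adjusted p = 0.0354). BTG3, for which IAA against control had not passed, rose 1.19-fold (log2 change 0.20, SE 0.0396, limma adjusted p = 0.0393), on 1425 and 1414 reads in washout against 1170 and 1208 in IAA. With FPKM rescaled to TPM the 8 calls held. The split over all genes moved from 643 higher and 553 lower to 804 higher and 400 lower (53.8% and 66.8% higher). Leaving out any library lowered the calls over all tested genes in this comparison, as well as those of the adapters.

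Without IAA replicate 1 BTG1 and ZFP36L1 were called in this comparison, without IAA replicate 2 ZFP36L1, without washout replicate 1 BTG1, BTG2 and ZFP36L1, and without washout replicate 2 BTG1 and ZFP36L1. Without control replicate 1 or 2, 6 were called, with BTG3 (limma adjusted p = 0.0595 and 0.0603) and ZFP36L2 (0.0706 and 0.0705) lost. Over the fits that left out a library the adjusted p of limma reached 0.0509 for BTG1, 0.0658 for BTG2, 0.0829 for TOB1, 0.0579 for TOB2, 0.101 for ZFP36, 0.155 for BTG3, 0.0451 for ZFP36L1 and 0.139 for ZFP36L2.

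Washout against control asked what was left 48 h after the wash. By limma 0 of 8 adapters changed, with 0 at an unadjusted p under 0.05 and 0 called by limma-voom on recovered reads. Of all tested genes 0 were called (0%), 750 (9.02%) had an unadjusted p under 0.05, and voom called 69 (0.83%). The mean in washout was 1.07 times that in control for BTG1, 0.924 for BTG2, 1.07 for BTG3, 0.909 for TOB1, 1.01 for TOB2, 1.01 for ZFP36, 1.08 for ZFP36L1 and 0.968 for ZFP36L2. The unadjusted 95% intervals of the log2 change ran from -0.29 to 0.03 for TOB1, from 0.00 to 0.22 for ZFP36L1 and from -0.08 to 0.26 for BTG1. Differences within these intervals were thus not excluded with 2 libraries per group. The washout and control libraries did not overlap for 4 adapters, BTG2 and TOB1 lower and BTG3 and ZFP36L1 higher in washout, against 42.2% of all tested genes whose groups did not overlap.

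**Figure D3:**
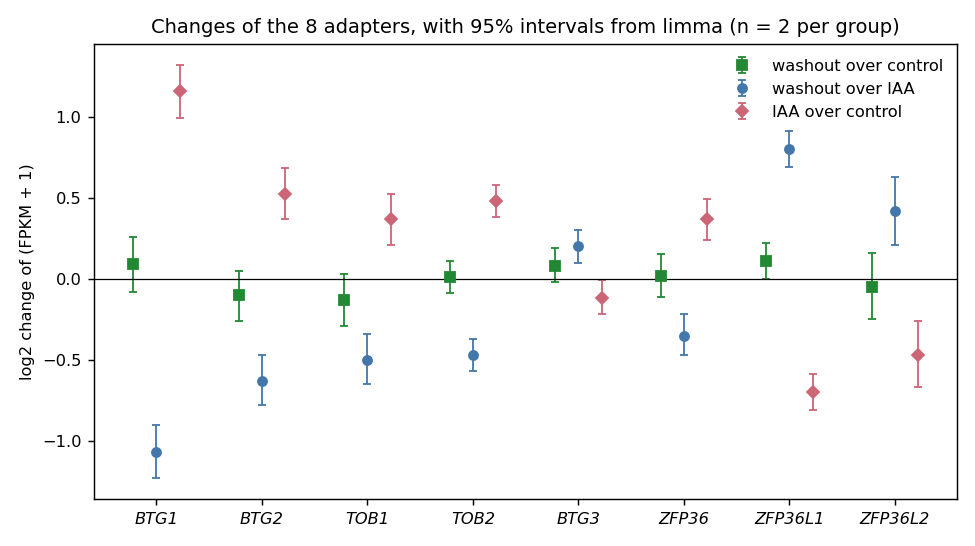
Log2 change of FPKM + 1 (vertical axis) for each adapter in washout over control, washout over IAA and IAA over control, with unadjusted 95% intervals from limma (n = 2 libraries per group). The intervals of washout over control reach or cross 0 for all 8, whereas BTG1 stands at 1.16 in IAA over control and ZFP36L1 at -0.70.

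The machinery that the adapters recruit was read from a list of 46 genes. Of its 32 tested members, 2 rose, 2 fell and 28 did not pass in IAA against control, with a median log2 change of 0.04 against 0.01 over all tested genes. The share called, 12.5%, was close to the 13.1% of all tested genes, as it was in washout against IAA (12.5% against 14.4%), so the list did not stand apart by its count. The list held 12 CCR4-NOT subunits, of which CNOT2, CNOT4, CNOT6L and CNOT10 averaged below 1 FPKM and were not tested. Deposited FPKM were divided by the whole gene span, so this limit also depends on intron length. These untested subunits stood at 0.93, 1.23, 0.996 and 0.952 times the control mean in IAA. Of the 8 tested CCR4-NOT subunits 0 passed limma's test in IAA against control (range -0.12 to 0.22). Of the 8, 4 had an unadjusted p under 0.05, against 31.6% of all tested genes. Limma-voom on recovered reads called 2 of the 8, CNOT8 higher and CNOT7 lower, against 27.1% of all tested genes. CNOT1, the scaffold, had means of 3.45 FPKM in washout, 3.40 in IAA and 3.33 in control. The deadenylase CNOT7, which BTG and TOB proteins bind, had 6.66 FPKM in washout, 6.30 in IAA and 6.96 in control (IAA against control, limma adjusted p = 0.0904), and its paralog CNOT8 had 3.36 FPKM in washout, 4.35 in IAA and 3.58 in control (0.0834). CNOT8 fell in washout against IAA (log2 change -0.29, limma adjusted p = 0.0454). The poly(A) binding proteins PABPC1 and PABPC4 had log2 changes of -0.03 and -0.01 in IAA against control and did not pass.

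Both genes of the list that rose in IAA were among the 12 tested of the PAN2-PAN3 and decapping group, of which 16.7% were thus called against 13.1% of all tested genes. DCP2, the decapping enzyme, had 2.76 ± 0.178 FPKM in IAA and 2.10 ± 0.164 FPKM in control (SD, n = 2 per group, limma adjusted p = 0.0421). EDC3, an enhancer of decapping, had 1.69 ± 0.0198 FPKM in IAA and 1.30 ± 0.0574 FPKM in control (limma adjusted p = 0.0249). HNRNPD (AUF1), another AU-rich element binding protein, had 7.74 ± 0.499 FPKM in IAA and 10.1 ± 0.462 FPKM in control (limma adjusted p = 0.0284), and NANOS1, a partner of Pumilio, had 3.30 ± 0.212 FPKM in IAA and 4.29 ± 0.357 FPKM in control (limma adjusted p = 0.0494). In washout against IAA, which shares the IAA libraries, HNRNPD and NANOS1 rose (limma adjusted p = 0.027 and 0.0322) and EDC3 fell (0.026). In washout against control limma called 0 of the 32, with 3 at an unadjusted p under 0.05, against 9.02% of all tested genes. Voom called PABPC4 there, lower in washout, against 0.83% of all tested genes. Without any 1 of the 6 libraries 0 genes of this list were called in either comparison with IAA.

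A list of 31 mRNAs with AU-rich elements, written from general knowledge of ZFP36 targets and including ZFP36 itself, had 18 tested members. It was chosen with earlier results of these data known, so the shares called below are not independent evidence about ZFP36 targets. In IAA against control 7 rose, 4 fell and 7 did not pass, so that 61.1% were called against 13.1% of all tested genes, with a median log2 change of 0.14 against 0.01 over all tested genes. The AP-1 subunit FOS rose 2.90-fold (log2 change 1.22, limma adjusted p = 0.00167) and JUN 1.44-fold (0.031), the cell cycle inhibitor CDKN1A 1.36-fold (0.00919) and the survival factor MCL1 1.27-fold (0.0227). PLAU, the urokinase protease, fell to 0.363 of control (log2 change -1.36, limma adjusted p = 0.00297), MYC to 0.57 (0.00297) and CCND1 to 0.623 (0.00402). In washout against IAA 6 rose and 9 fell, 83.3% called against 14.4% of all tested genes. In washout against control limma called 0 of the 18, with 5 at an unadjusted p under 0.05, against 9.02% of all tested genes. Voom called VEGFA there, lower in washout, against 0.83% of all tested genes. Among cytokine mRNAs of the list LIF was tested, at means of 42.8 FPKM in washout, 51.4 in IAA and 47.1 in control. It did not pass in IAA against control (limma adjusted p = 0.146) and fell in washout against IAA (limma adjusted p = 0.0304). The other cytokine and chemokine mRNAs of the list were low and not tested. IL6 and CCL2 were listed at 0 in all libraries and TNF above 0 in 1 library, IAA replicate 2, at 0.0215 FPKM. IL8 was the highest of these untested mRNAs, at 0.857 and 0.468 FPKM in washout, 1.04 and 0.687 in IAA and 0.787 and 0.669 in control. CXCL1 lay between 0.259 and 0.325 FPKM in all libraries. CXCL2 had means of 0.0398 FPKM in washout, 0.148 in IAA and 0.292 in control, with 0.242 and 0.0528 in the IAA libraries. CXCL3 had means of 0.108 FPKM in washout, 0.0271 in IAA and 0.108 in control. At such low levels these differences were not tested. Without each library in turn 4 to 9 members were called in IAA against control. Without control or IAA replicate 1 or 2 the count was 4, and without washout replicate 1 or 2 it was 9.

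**Figure D4:**
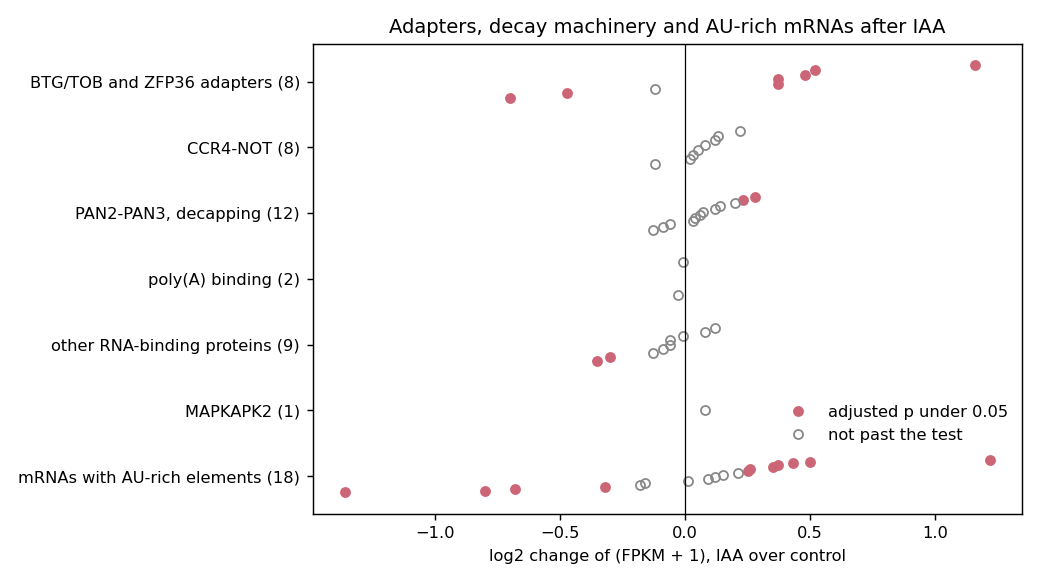
Log2 change of FPKM + 1 in IAA over control (horizontal axis) for each tested adapter, decay factor and mRNA with AU-rich elements, 1 point per gene and the number tested in brackets. Filled points passed limma's adjusted p of 0.05. The 7 filled adapters lie on both sides of 0, while the 8 tested CCR4-NOT subunits are open points between -0.12 and 0.22. Voom on recovered reads called CNOT7 and CNOT8.

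Profiles like those of the adapters were sought among all tested genes, as the root mean square difference of log2(FPKM + 1), centred on each gene's mean, over the 6 libraries. Nearest to BTG1 were OVOL1 (0.077) and SERTAD1 (0.086), to BTG2 ING1 (0.034) and SLC25A30 (0.038), and to TOB1 FAM217B (0.034) and EXOC8 (0.041). TOB2 was closest to SSH1 and TFAP2A (0.023 each) and ZFP36 to ELF4 (0.024). The falling ZFP36L1 was closest to PDGFB (0.018), which had 2.41 FPKM in washout, 0.971 in IAA and 2.17 in control, and to CCAT1 (0.04). ZFP36L2 was closest to TMEM184A (0.029) and ZNF692 (0.039). BTG1 had the least similar neighbours of the 7 adapters compared. Because 1 was added to each FPKM, this scale compresses the changes of low genes. In IAA against control low genes such as PDGFB, CCAT1, SLC25A30, TFAP2A, FAM217B and ELF4 changed by larger folds than the adapters they were closest to.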

How the data were processed

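The authors deposited FPKM, 1 value per gene and library. HISAT, Bowtie2, HTSeq, edgeR and hg19 are named in the submitters' processing notes, without versions, and no source used here gives the annotation, strandedness or filters. Per the labels' protocols, polyadenylated RNA was captured on beads and reverse transcribed with random primers. Dividing the deposited FPKM by the value of 1 read gave whole-number library totals and whole reads for the 21707 genes above 0 (tolerance 0.01 reads): 16625 with the gene span as length, 4497 with a scaled and 585 with an unscaled smallest whole solution, which are whole by construction. The recovered reads summed to 104.64% to 105.03% of the totals. GENCODE 29 (GRCh38) supplied gene spans. With the whole span as length 84.6% of 9097 low genes were whole in all libraries, and with exon length 32.4%. Where no span matched, the smallest whole solution was scaled to the nearest multiple. Replicates differed by more than counting noise (chi-square per gene 3.32 in washout, 2.97 in IAA and 2.7 in control).

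Genes averaging 1 FPKM or more entered limma 3.58.1 (R 4.3.3) as log2(FPKM + 1), a scale that understates changes of low genes, with all 6 libraries, a trended prior, 3 residual and 1.81 prior degrees of freedom. Fits and recovery were tested on simulated data. Named were all adapters, up to 8 called genes per list and comparison with the largest change, and the 2 nearest profiles of each adapter called in IAA against control, of which 1 is not reported here. Values of CCR4-NOT, poly(A) binding and cytokine genes outside this rule were chosen after they were seen. The adapters, lists, motifs and tests were chosen with earlier results of these data known. Alternatives are described in the closing section.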

Additional observations from a re-analysis of the deposited data

How the results depend on the processing

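Of the alternatives, pseudocounts of 0.1 and 5, TPM and a prior without trend left the adapters called as reported. A mean of at least 5 FPKM left BTG3 untested. Of the 3350 genes it tested, 501 were called in IAA against control and 548 in washout against IAA. In each, 1 of the 10 tested genes of the decay list was called. Without a filter TOB1 (adjusted p = 0.0628) and ZFP36L2 (0.0747) did not pass in IAA against control, nor BTG3 (0.0658) and ZFP36L2 (0.0853) in washout against IAA. The fit without a filter called 2 of 46 tested genes of the decay list in IAA against control, beside 881 of all 21707 tested genes. It called 48 of 21707 tested genes in washout against control. With only the 2 groups compared, 536 and 413 genes were called in IAA against control and washout against IAA, with 0 of the decay list in both, and BTG3 (0.0595) and ZFP36L2 (0.0704) did not pass in washout against IAA. Voom on recovered reads called 2250, 2387 and 69 genes in IAA against control, washout against IAA and washout against control, with 10, 11 and 1 of the decay list, and 1 of the AU-rich list in washout against control. The causes were not tested.

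With the replicate number as a block, 486 genes and 4 adapters (BTG1, BTG2, TOB2 and ZFP36L1) were called in IAA against control, with 1 gene of the decay list and 5 of the AU-rich list. In washout against IAA the block left 532 genes, 5 adapters and 0 of the decay list. Same-numbered libraries did not deviate together (r across genes 0.043, -0.027 and 0.006), so the numbers were not taken as pairs.

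Without each library in turn, 50 to 534 genes, 1 to 7 adapters, 0 to 0 of the decay list and 4 to 9 of the AU-rich list were called in IAA against control. In washout against IAA 46 to 421 genes, 1 to 6 adapters, 0 to 0 of the decay list and 3 to 11 of the AU-rich list were called. In washout against control the log2 change of TOB2 ran from -0.01 to 0.03, of ZFP36 from -0.03 to 0.06 and of ZFP36L2 from -0.12 to 0.03, so their sign was not fixed.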
